A study of Mus musculus with 8 samples.

Results

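The ADAMTS genes encode secreted metalloproteinases of the extracellular matrix, and 10 of them, *Adamts1*, *Adamts2*, *Adamts4*, *Adamts5*, *Adamts7*, *Adamts9*, *Adamts10*, *Adamts12*, *Adamts14* and *Adamts15*, were followed here among the 31053 genes counted in cultured fibro/adipogenic progenitors (FAPs). The members were taken by name, as the proteases of the family that act on aggrecan-like proteoglycans, on procollagens and on related matrix proteins, and each matched 1 Ensembl gene. All 10 had at least 1 count, and 7 had enough counts to be tested.

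FAPs are mesenchymal cells of the muscle interstitium that can become adipocytes or matrix-producing myofibroblasts. They came from hind limb muscles of 4 *mdx* mice (strain C57BL/10ScSn-Dmdmdx/J, aged 45 days), a model of Duchenne muscular dystrophy, so both groups carried the *Dmd* mutation and no wild type cells were analysed here. Cells negative for CD45, CD31 and ITGA7 were sorted for high or low surface SCA-1, which gave SCA1-High-FAPs and, as the control, SCA1-Low-FAPs. Both cell states then received the same growth medium (GM) for 5 days, and total RNA was made into 3′ mRNA libraries, 4 per cell state.

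ADAMTS proteins consist of a zinc-dependent catalytic domain, a disintegrin-like domain and thrombospondin repeats that hold the enzyme in the matrix. They are made as inactive proenzymes, and furin-like convertases remove the propeptide. ADAMTS1, ADAMTS4, ADAMTS5, ADAMTS9 and ADAMTS15 cut the hyaluronan-binding proteoglycans aggrecan and versican, and ADAMTS2 and ADAMTS14 remove the N-propeptide of fibrillar procollagens, a step needed for regular fibrils. ADAMTS7 and ADAMTS12 cut cartilage oligomeric matrix protein, and ADAMTS10 binds fibrillin microfibrils. TIMP3 is the main tissue inhibitor of several of these enzymes, and the endocytic receptor LRP1 clears ADAMTS4 and ADAMTS5 from the cell surroundings.

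Libraries held 1880561 to 3985656 counts on genes, and mitochondrial genes took 1.77% to 2.74% of them. A gene with 3 counts stood at 0.792 to 1.63 CPM, where CPM is counts per 1000000 counts after TMM scaling, and this limit covers counting error only. A 3′ library gives reads near the end of a transcript whatever its length, so that CPM are set side by side between genes without division by length. *Ly6a*, the gene of SCA-1, did not follow the sort after culture, with 711 ± 184 CPM after the high sort, against 1087 ± 58.8 CPM after the low sort (SD, n = 4 each, log2 fold change 0.61, adjusted p = 0.0341 from edgeR). This call held in 1 of the 8 fits that each left out 1 library, the one without replicate 4 of SCA1-High-FAPs. Adjusted p-values reached 0.0947 without replicate 1 of SCA1-Low-FAPs. With all libraries kept, the call held in 6 of 7 alternative fits. The sort was on surface protein, and the paper reports that SCA-1 protein of the sorted cells overlapped after a longer culture in another medium. The groups are named here by the sort. The labels do not name the mouse of each library. The paper defines biological replicates as different mice and gives n = 4 of them for these data. The p-values measure the spread between these libraries.

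Promoters of 5 members are listed by RefSeq (GRCm38.p6, from 250 bases before to 50 bases after the start site), and those of the procollagen enzyme that differed between the cell states, of its near-silent relative and of the hyalectanase with a TATA box are shown. Capitals mark the core GC box GGGCGG and the core TATA box TATAAA, each searched on both strands. The *Adamts2* promoter lies at chr11:50601835-50602134 on the plus strand, that of *Adamts14* at chr10:61273370-61273669 and that of *Adamts1* at chr16:85803064-85803363, both on the minus strand.
Adamts2: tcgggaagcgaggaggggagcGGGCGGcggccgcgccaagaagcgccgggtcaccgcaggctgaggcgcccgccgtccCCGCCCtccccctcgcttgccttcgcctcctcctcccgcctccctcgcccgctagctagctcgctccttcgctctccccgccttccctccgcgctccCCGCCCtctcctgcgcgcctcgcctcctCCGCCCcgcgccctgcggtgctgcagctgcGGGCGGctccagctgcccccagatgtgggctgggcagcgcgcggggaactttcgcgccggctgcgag
Adamts14: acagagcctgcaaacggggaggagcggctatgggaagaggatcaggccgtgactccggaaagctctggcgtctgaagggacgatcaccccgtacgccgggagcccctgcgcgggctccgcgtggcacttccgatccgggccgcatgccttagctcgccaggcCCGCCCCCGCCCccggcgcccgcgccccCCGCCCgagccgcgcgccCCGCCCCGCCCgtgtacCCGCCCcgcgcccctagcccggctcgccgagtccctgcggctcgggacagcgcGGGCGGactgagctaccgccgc
Adamts1: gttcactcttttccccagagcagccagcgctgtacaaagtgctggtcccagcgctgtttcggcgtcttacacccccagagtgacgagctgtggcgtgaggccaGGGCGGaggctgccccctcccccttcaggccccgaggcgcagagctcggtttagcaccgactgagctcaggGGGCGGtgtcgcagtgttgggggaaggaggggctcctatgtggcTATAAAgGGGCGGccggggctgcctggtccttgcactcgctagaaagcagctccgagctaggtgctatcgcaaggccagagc
*Adamts2* held 5 GC boxes, *Adamts14* held 7, some of them overlapping, and *Adamts1* held 3, with TATAAA beginning at position -32 from the start site. GGGCGG occurs in 35.7% and TATAAA in 13.6% of the 32851 promoters of this length. The GC content was 77.3% in *Adamts2*, 76.7% in *Adamts14* and 64.7% in *Adamts1*, against a median of 52.7% over all promoters. CCAAT (37.4% of promoters) and the AP-1 sequence TGANTCA (7.81%) were not in any of the 3 windows. *Adamts2* and *Adamts14* thus had similar promoters by these letters and levels far apart.

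The transcripts fell into an abundant, a middle and a scarce group. *Adamts5* stood at 530 CPM, *Adamts2* at 372 CPM and *Adamts1* at 211 CPM as means of the 8 libraries, which placed them at ranks 250, 396 and 828 of the 15873 genes with a count. *Adamts9* (68.2 CPM), *Adamts12* (68.0 CPM), *Adamts10* (22.8 CPM) and *Adamts4* (20.3 CPM) followed. *Adamts15*, *Adamts7* and *Adamts14* stood at 4.32, 2.33 and 0.501 CPM. The order of neighbours was the same in all 8 libraries for *Adamts2* over *Adamts1*, *Adamts1* over *Adamts9*, *Adamts12* over *Adamts10* and *Adamts4* over *Adamts15*. *Adamts5* exceeded *Adamts2* in 7 of 8 libraries, and *Adamts9* and *Adamts12* did not differ beyond their spread, each being the higher in 4 of 8 libraries. The same was true of *Adamts10* against *Adamts4*, and of *Adamts15* against *Adamts7*.

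**Figure D1:**
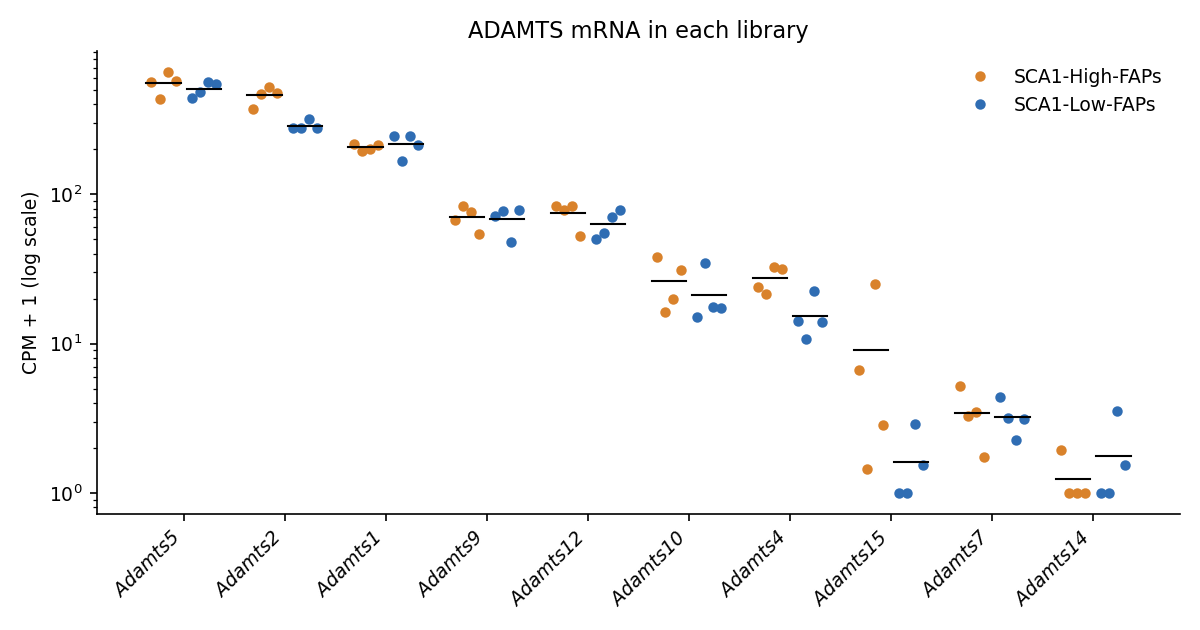
Each point is the CPM + 1 of a gene in 1 library, on a log axis, with genes ordered by mean CPM and a black bar at the mean of each cell state (n = 4). The 4 SCA1-High-FAPs libraries lie above all SCA1-Low-FAPs libraries for *Adamts2*, and the cell states overlap for the other 9 genes.

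*Adamts2*, which encodes the main procollagen I N-proteinase, was the single tested member that passed the test between the cell states, with more mRNA in SCA1-High-FAPs. The gene (ENSMUSG00000036545) lies on chromosome 11 of GRCm38 from 50602084 to 50807573. It stood at 368, 467, 519 and 476 CPM in replicates 1 to 4 of SCA1-High-FAPs and at 276.0, 275.5, 317 and 277 CPM in those of SCA1-Low-FAPs. Every SCA1-High-FAPs library was above every SCA1-Low-FAPs library, and 3 of the SCA1-Low-FAPs values were almost equal. The means were 458 ± 63.9 CPM and 286 ± 20.2 CPM (SD, n = 4 each), 1.60-fold higher in SCA1-High-FAPs. As a log2 fold change, taken throughout as SCA1-Low-FAPs divided by SCA1-High-FAPs, this was -0.68 (standard error 0.14, 95% interval -0.98 to -0.37, adjusted p = 0.00762 from edgeR). A gene passed when the adjusted p-value was under 0.05 and the log2 fold change was beyond 0.5 in size. By these limits 1 of the 7 tested members passed (14.3%), beside 7.68% of all 10181 tested genes and 4.36% of them in the direction of SCA1-High-FAPs, so the share called is no result about the family. None of the 7 passed towards SCA1-Low-FAPs, as 3.32% of all tested genes did. The CPM of the groups did not overlap for 1 of the 7 tested members, and for 14.1% of all tested genes, 7.46% with the higher values in SCA1-High-FAPs. With the replicate number as a block 1 member was again called, beside 6.85% of tested genes. *Adamts2* passed in all 8 fits that left out 1 library, with log2 fold changes of -0.76 to -0.61.

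*Adamts14* (ENSMUSG00000059901, chromosome 10, 61197112 to 61273438), which encodes the other procollagen N-proteinase among the members, was barely detected. It had 12 counts in the 8 libraries, and 8 of these were in replicate 3 of SCA1-Low-FAPs. SCA1-High-FAPs had 2 counts in replicate 1 and 0 in the others. It did not reach the edgeR filter, and without the filter the log2 fold change was 1.68 (adjusted p = 0.619 from edgeR). A difference between the cell states was not detectable at this depth.

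**Figure D2:**
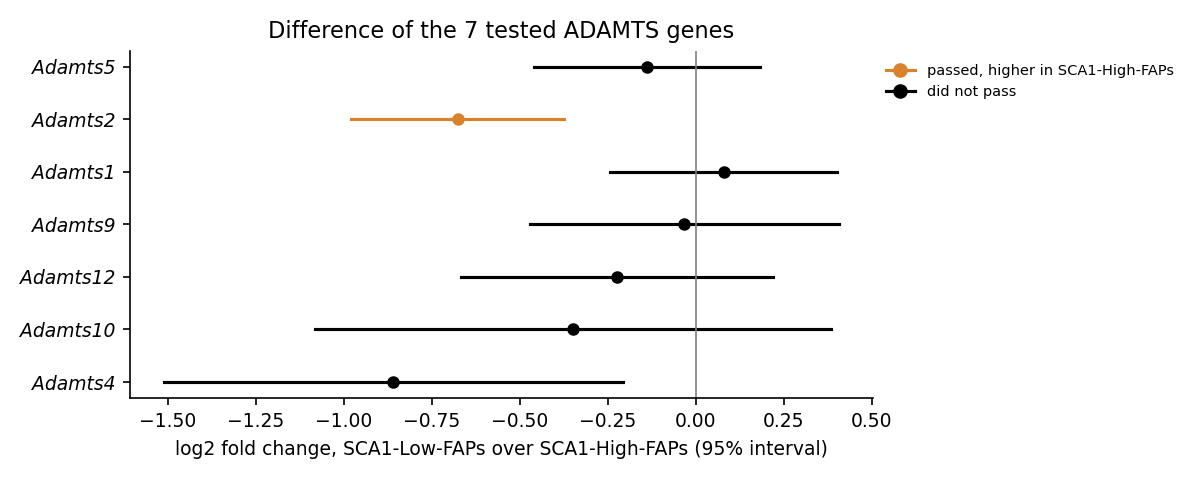
Points are log2 fold changes (SCA1-Low-FAPs divided by SCA1-High-FAPs) for the 7 members tested by edgeR, and lines are 95% intervals. The interval of *Adamts2* (-0.98 to -0.37) and that of *Adamts4* (-1.51 to -0.21) exclude 0, and *Adamts2* alone passed after adjustment.

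*Adamts5*, which encodes the main aggrecanase of mouse cartilage and a versican-cleaving enzyme, had the highest mean of the members in both cell states. The gene (ENSMUSG00000022894) lies on chromosome 16 from 85856173 to 85901828, on the minus strand. It stood at 562, 432, 658 and 572 CPM in the 4 SCA1-High-FAPs libraries, against 436, 479, 561 and 542 CPM in SCA1-Low-FAPs. The values overlapped, and the log2 fold change was -0.14 (95% interval -0.46 to 0.18, adjusted p = 0.666 from edgeR). The interval allows a level in SCA1-High-FAPs between 0.882 and 1.38 times that in SCA1-Low-FAPs.

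*Adamts1*, a gene induced by inflammatory and hormonal signals, lies beside *Adamts5* on chromosome 16 (85793827 to 85803113, with 53059 bases between them). Its CPM were 215, 194, 199.6 and 213 in SCA1-High-FAPs, against 246, 165, 244 and 212 in SCA1-Low-FAPs. SCA1-High-FAPs replicates were close together, and the SCA1-Low-FAPs replicates were more spread, with replicates 1 and 3 above them, replicate 2 below and replicate 4 within their range. The log2 fold change was 0.08 (95% interval -0.24 to 0.40, adjusted p = 0.831). *Adamts9* (chromosome 6, 92772699 to 92943492), whose protein cuts versican, was at 68.9 ± 12.5 CPM and 67.4 ± 14.1 CPM (SD, n = 4), which differed by -0.03 on the log2 scale (95% interval -0.47 to 0.41, adjusted p = 0.954). The sign of this value turned with the library left out, from -0.14 to 0.10.

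*Adamts4* (ENSMUSG00000006403, chromosome 1, 171250421 to 171260637), which encodes an aggrecanase induced by cytokines, had fewer counts, 18 to 83 per library. Its levels were 23.1, 20.3, 31.3 and 30.4 CPM in SCA1-High-FAPs, against 13.1, 9.80, 21.6 and 12.9 CPM in SCA1-Low-FAPs. Replicate 3 of SCA1-Low-FAPs reached into the range of SCA1-High-FAPs, and SCA1-High-FAPs was the higher in all 4 same-numbered comparisons. Its log2 fold change was -0.86 with a standard error of 0.31, and it was not called (adjusted p = 0.103 from edgeR). An unadjusted p under 0.05 was reached by 2 of the 7 members, *Adamts2* and *Adamts4*, and by 21.3% of all tested genes. Without replicate 3 of SCA1-Low-FAPs the value for *Adamts4* was -1.14, and it passed (adjusted p = 0.0360 from edgeR).

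*Adamts15* (ENSMUSG00000033453, chromosome 9, 30899155 to 30922452), which encodes another aggrecanase and versican-cleaving enzyme, had too few counts for the edgeR filter. It had 12, 1, 58 and 5 counts in replicates 1 to 4 of SCA1-High-FAPs and 0, 0, 6 and 2 in those of SCA1-Low-FAPs. Replicate 3 of SCA1-High-FAPs held 58 of the 84 counts. DESeq2, which tests such genes, gave a log2 fold change of -3.61 (adjusted p = 0.0230, with 8.53% of its tested genes called), and edgeR without the filter gave -3.42 (adjusted p = 0.0114, with 6.63% called). Without replicate 3 of SCA1-High-FAPs the values were -2.01 (adjusted p = 0.534 from DESeq2) and -1.90 (adjusted p = 0.542 from edgeR), so the call rested on that library.

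*Adamts12* (chromosome 15, 11064790 to 11349231) and *Adamts7* (chromosome 9, 90163069 to 90208071) encode enzymes that act on cartilage oligomeric matrix protein. *Adamts12* was at 82.4, 77.8, 82.7 and 51.3 CPM in the 4 SCA1-High-FAPs libraries, against 49.3, 53.9, 69.5 and 77.3 CPM in SCA1-Low-FAPs, and the groups overlapped over most of their range. Its log2 fold change was -0.22 (95% interval -0.67 to 0.22, adjusted p = 0.600 from edgeR). *Adamts7* had 2 to 9 counts in each library, 45 in all, and did not reach the edgeR filter. It was not called by DESeq2 (log2 fold change -0.12, adjusted p = 0.965) or by edgeR without the filter (-0.10, adjusted p = 0.971). The 3′ end of *Adamts7* is overlapped by *Tbc1d2b* on the other strand, which had 1313 counts, and as the strand setting of the counting is not given in the sources used here, the few counts of *Adamts7* are uncertain. *Adamts10* (chromosome 17, 33524204 to 33553782) was at 25.4 ± 10.1 CPM in SCA1-High-FAPs, against 20.2 ± 9.14 CPM in SCA1-Low-FAPs (SD, n = 4), with a log2 fold change of -0.35 (95% interval -1.08 to 0.38, adjusted p = 0.626). The standard error was 0.35 for *Adamts10* at 445 counts and 0.152 for *Adamts5* at 10888 counts. It did not follow depth alone, being 0.31 for *Adamts4* at 414 counts and 0.144 for *Adamts2* at 7482 counts.

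Summed over the 10 genes, SCA1-High-FAPs had 1424 ± 137 CPM and SCA1-Low-FAPs 1175 ± 89.4 CPM (SD, n = 4). The libraries of SCA1-High-FAPs ran from 1291 to 1611 CPM and those of SCA1-Low-FAPs from 1094 to 1281 CPM. *Adamts2* accounted for 171 of the 248 CPM between the means, and the 5 hyalectanases together (the enzymes of aggrecan and versican) overlapped, at 864 ± 106 and 803 ± 67.6 CPM. As a share of the counts on the 10 genes in the same library, which no scaling between libraries can move, *Adamts2* took 27.0% to 36.2% in SCA1-High-FAPs, against 22.7% to 25.2% in SCA1-Low-FAPs. *Adamts5* took 33.5% to 41.2% and 39.4% to 44.5%, and *Adamts1* took 12.4% to 15.7% and 15.1% to 22.2%. These 3 genes held 83.9% to 88.3% of the counts in every library. No test was made of sums or shares, because the members were chosen with results of these data known.

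**Figure D3:**
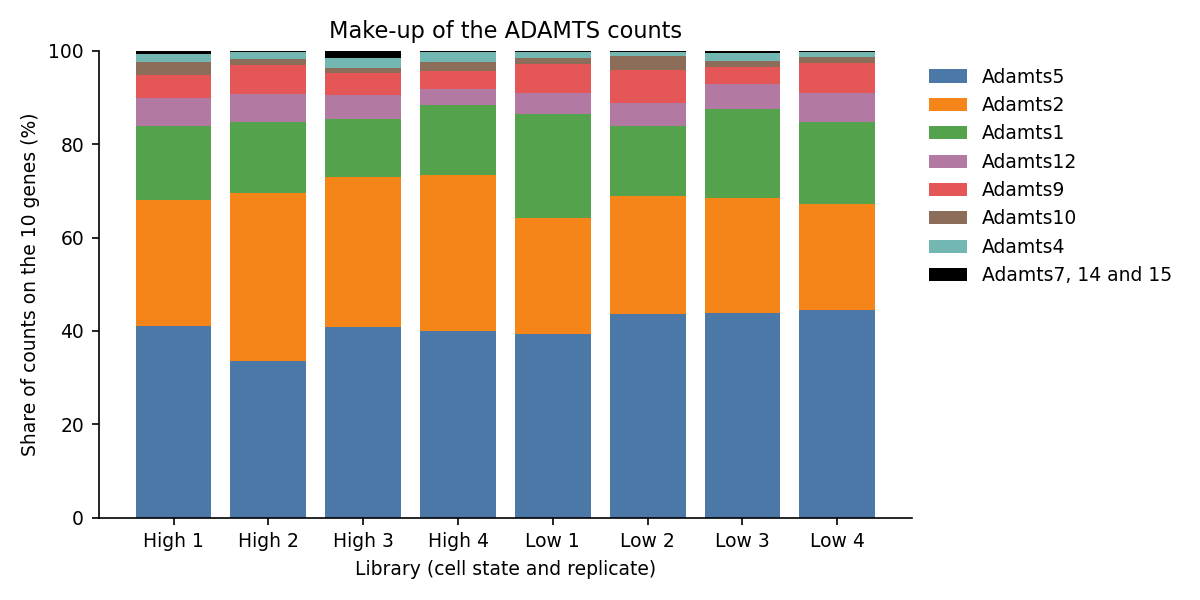
Each bar is 1 library, divided by the share (%) that each gene took of the counts on the 10 genes. *Adamts5*, *Adamts2* and *Adamts1* fill 83.9% to 88.3% of every bar, and the *Adamts2* part is larger in each of the 4 SCA1-High-FAPs libraries than in any SCA1-Low-FAPs library.

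Other genes of the family added little. Of 9 further ADAMTS genes, 3 (*Adamts8*, *Adamts13* and *Adamts18*) had 0 counts in all 8 libraries and none was tested. *Adamts6*, whose protein acts on microfibrils, had 13, 16, 12 and 24 counts in SCA1-Low-FAPs and 5, 2, 0 and 5 in SCA1-High-FAPs, and is named after its values were seen. With DESeq2 its log2 fold change was 2.30 (adjusted p = 0.0492), edgeR without the filter gave 2.27 (adjusted p = 0.108), and it was not called with the replicate number as a block in DESeq2. Of 7 genes for ADAMTS-like proteins, which share the matrix-binding domains and lack the protease, 4 were tested and 1 passed. Over all tested genes 7.68% passed. *Adamtsl1*, which encodes punctin, was at 81.5, 104, 73.5 and 73.0 CPM in SCA1-High-FAPs, against 36.3, 41.4, 34.6 and 37.0 CPM in SCA1-Low-FAPs. The groups were well apart, with 2.23-fold more in SCA1-High-FAPs (log2 fold change -1.16, standard error 0.20, adjusted p = 0.00173 from edgeR). *Adamtsl1* passed in all 8 fits that left out 1 library.

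Among 7 genes of inhibition and clearance, 5 were tested and 3 passed, 2 of them higher in SCA1-Low-FAPs, beside 7.68% of all tested genes. *Timp3* stood at 669, 755, 274.3 and 673 CPM in the 4 SCA1-High-FAPs libraries, against 2348, 1701, 1275 and 1736 CPM in SCA1-Low-FAPs. The lowest SCA1-Low-FAPs library exceeded the highest SCA1-High-FAPs library, and the level was 2.98-fold higher in SCA1-Low-FAPs (a log2 value of 1.57, standard error 0.29, adjusted p = 0.00878 from edgeR). *Timp1*, which mainly inhibits MMPs, was 1.95-fold higher there (log2 fold change 0.96, adjusted p = 0.00185), and *Timp2* did not pass at -0.01 (adjusted p = 0.974). *Timp1* and *Timp3* passed in all 8 fits that left out 1 library. *Lrp1* did not pass at 0.42 (adjusted p = 0.0759), although its groups did not overlap. *Lrpap1*, which encodes the chaperone that blocks ligand binding to LRP1, was 1.82-fold higher in SCA1-High-FAPs (log2 fold change -0.86, adjusted p = 0.0184). Its call was lost without replicate 3 of SCA1-High-FAPs (-0.65, adjusted p = 0.0632 from edgeR) and without replicates 1 (-0.73, adjusted p = 0.0787) or 4 (-0.87, adjusted p = 0.0538) of SCA1-Low-FAPs.

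Counts on the 10 ADAMTS genes were also set against *Timp3* within each library. There were 2.04, 1.71, 5.87 and 2.12 ADAMTS counts per *Timp3* count in replicates 1 to 4 of SCA1-High-FAPs and 0.472, 0.643, 1.00 and 0.701 in those of SCA1-Low-FAPs. The groups did not overlap, which was fixed in advance. The summed CPM of the 10 genes and the CPM of *Timp3* each separated the groups already, in opposite directions. The ratio is thus no further result. *Adamts2* gave 65.5 to 108 counts per 100 *Adamts5* counts in SCA1-High-FAPs, against 51.1 to 63.2 in SCA1-Low-FAPs. Against its substrate *Col3a1* the groups overlapped. There were 63.3 to 118 *Adamts2* counts per 1000 *Col3a1* counts in SCA1-High-FAPs, against 79.6 to 177 in SCA1-Low-FAPs. Against *Col1a1* and *Col1a2* together they also overlapped, at 19.7 to 40.2 per 1000 counts in SCA1-High-FAPs and 15.8 to 26.0 in SCA1-Low-FAPs. The mean in SCA1-High-FAPs was the lower against *Col3a1* (91.9 and 128) and the higher against the procollagen I genes (26.1 and 19.9).

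**Figure D4:**
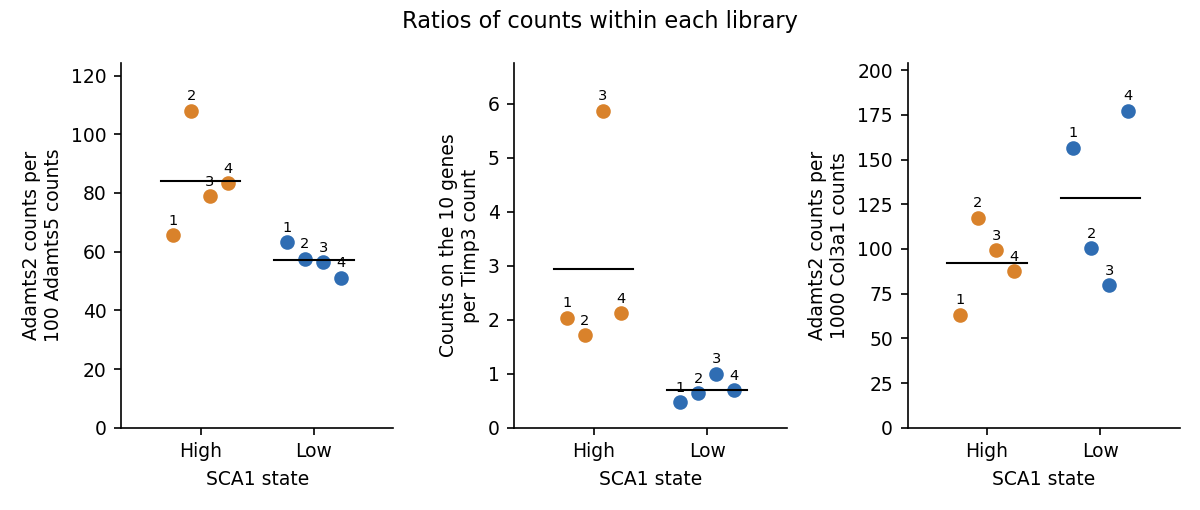
Points are ratios of counts within 1 library, labelled with the replicate number, for *Adamts2* against *Adamts5*, the 10 genes against *Timp3*, and *Adamts2* against *Col3a1*, and bars are means (n = 4). The cell states do not overlap in the first and second panel (0.472 to 1.00 ADAMTS counts per *Timp3* count in SCA1-Low-FAPs) and overlap in the third. In the second panel this follows from the opposite separation of the summed CPM and of *Timp3*.

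Enzymes that mature the proteases were mostly not called, and 7.68% of all tested genes were called. Of 6 tested, *Pcsk5*, which encodes a furin-like convertase, passed with a 3.51-fold higher level in SCA1-High-FAPs (log2 fold change -1.81, standard error 0.44, adjusted p = 0.0290 from edgeR). It was at 57.0 to 90.9 CPM in SCA1-High-FAPs, while SCA1-Low-FAPs had 44.4 CPM in replicate 3 and 9.18 to 12.1 CPM in the others. The call held in 2 of the 8 fits that left out 1 library, those without replicate 2 of SCA1-High-FAPs or replicate 3 of SCA1-Low-FAPs. Adjusted p-values reached 0.101 without replicate 4 of SCA1-Low-FAPs. With all libraries kept, the call held in 6 of 7 alternative fits and was lost without the filter (adjusted p = 0.0682 from edgeR). The size rested on replicate 3 of SCA1-Low-FAPs, without which the difference was 6.34-fold (-2.67, adjusted p = 2.48e-05 from edgeR). *Furin* itself was at 176 ± 34.9 and 149 ± 27.2 CPM (SD, n = 4) and did not pass (log2 fold change -0.24, adjusted p = 0.497).

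On the side of the substrates, the hyalectan gene with appreciable counts was *Vcan* (versican), at 983 ± 220 CPM in SCA1-High-FAPs, against 1208 ± 155 CPM in SCA1-Low-FAPs (SD, n = 4). It did not pass (log2 fold change 0.30, 95% interval -0.05 to 0.65, adjusted p = 0.330 from edgeR). *Acan*, the gene of aggrecan, had 0 counts in all 8 libraries, and none of the other 6 hyalectan and link protein genes was tested. Of 9 tested genes for procollagens and the enzymes of their C-propeptide, *Col3a1* passed towards SCA1-High-FAPs (-1.03, adjusted p = 0.0294) and *Col2a1* towards SCA1-Low-FAPs (3.70, adjusted p = 0.0156). Over all tested genes 7.68% passed, 4.36% towards SCA1-High-FAPs and 3.32% towards SCA1-Low-FAPs. *Col3a1* held in 2 of the 8 fits that left out 1 library, those without replicate 2 of SCA1-High-FAPs or replicate 3 of SCA1-Low-FAPs. Adjusted p-values reached 0.105 without replicate 1 of SCA1-High-FAPs. With all libraries kept, *Col3a1* held in 6 of 7 alternative fits and was lost without the filter (adjusted p = 0.0932 from edgeR). The 7 counts of *Col2a1* in SCA1-High-FAPs were all in replicate 3, and without that library the other 3 had 0 counts and the fitted value of 7.71 (adjusted p = 0.00182) depended on the prior count, so its size is not known. *Col2a1* had at most 42 counts in a library, and lost its call without replicates 1 (3.64, adjusted p = 0.0531) or 4 (3.64, adjusted p = 0.0548) of SCA1-Low-FAPs. *Pcolce*, which encodes an enhancer of C-propeptide removal, did not pass (-0.41, adjusted p = 0.115). The procollagen I genes *Col1a1* (-0.20, adjusted p = 0.587 from edgeR) and *Col1a2* (-0.36, adjusted p = 0.394) did not pass either.

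Of 9 other tested substrates and partners, 3 passed, all higher in SCA1-High-FAPs. *Comp*, the substrate of ADAMTS7 and ADAMTS12, was 2.65-fold higher (93.2 ± 26.5 and 34.9 ± 8.91 CPM, SD, n = 4, log2 fold change -1.41, adjusted p = 0.00173 from edgeR), and it passed in all 8 fits that left out 1 library. *Fbn2* (-1.13, adjusted p = 0.0180), a fibrillin, lost its call without replicates 1 (-0.97, adjusted p = 0.0687) or 4 (-0.95, adjusted p = 0.0551) of SCA1-Low-FAPs. *Fn1* (-0.64, adjusted p = 0.0165), which encodes fibronectin, lost it without replicate 2 of SCA1-High-FAPs (-0.60, adjusted p = 0.0524) or replicates 1 (-0.56, adjusted p = 0.0881) or 4 (-0.56, adjusted p = 0.0612) of SCA1-Low-FAPs. *Fbn1*, the main fibrillin, did not pass (-0.31, adjusted p = 0.232). In these 5 lists of inhibitors, maturation enzymes and substrates, 9 of 30 tested genes passed, and 6 of them were higher in SCA1-High-FAPs. Log2 fold changes of the 30 had a median of -0.29. For all tested genes the share called was 7.68% and the median 0.0003. The lists were chosen with earlier results of these data known, so neither the share nor the median is a result about them.

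**Figure D5:**
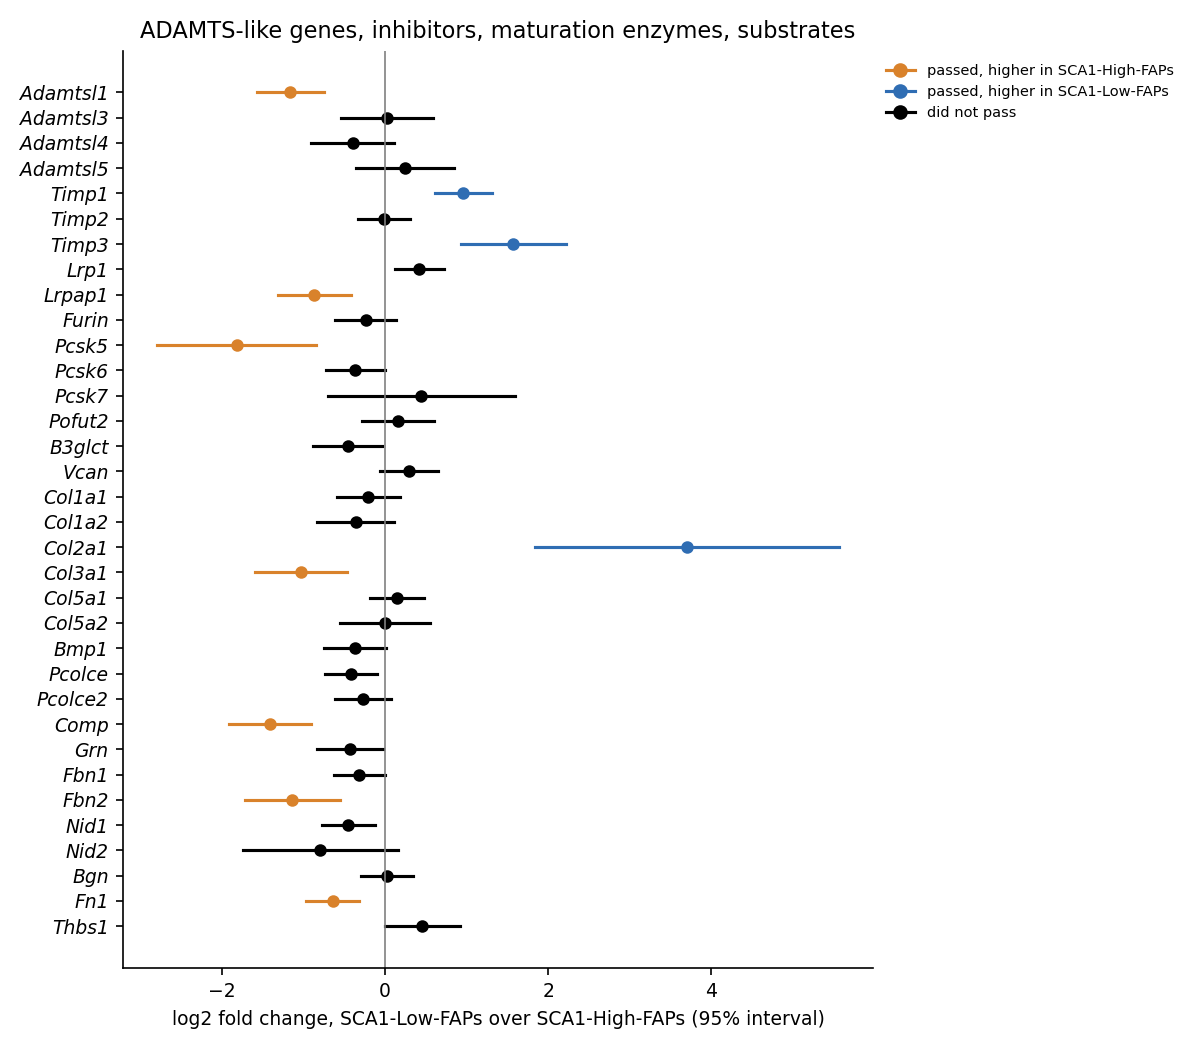
Points are log2 fold changes (SCA1-Low-FAPs divided by SCA1-High-FAPs) with 95% intervals for tested ADAMTS-like genes, inhibitors, maturation enzymes and substrates. *Col2a1* (3.70), *Timp3* (1.57) and *Timp1* (0.96) lie on the side of SCA1-Low-FAPs, and *Adamtsl1*, *Lrpap1*, *Pcsk5*, *Col3a1*, *Comp*, *Fbn2* and *Fn1* on that of SCA1-High-FAPs.

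The gene whose pattern over the 8 libraries was most like that of *Adamts2* was *Mxd4*, a repressor of the MAX network, with a root mean square difference of 0.0855 in centred log2 CPM. *Mylk*, the myosin light chain kinase, followed at 0.115 and the histone gene *H2afv* at 0.120, among 8546 genes of at least 10 CPM whose median was 0.511. *Mxd4* was at 456 and 310 CPM as means of the cell states, in the same order, much as *Adamts2* was.

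Markers of other cells moved with the cell states as well. All 6 cycling genes passed and were higher in SCA1-Low-FAPs, where their summed level was 1021 to 1494 CPM, against 524 to 734 CPM in the other cell state. Over all tested genes 7.68% were called, 3.32% towards SCA1-Low-FAPs. In a separate growth assay, the paper reports that SCA1-High-FAPs divided faster and, as they reached confluence earlier, held fewer Ki-67 positive cells at late times. Cell density at harvest is not given for these libraries, and its part was not tested. The 6 adipocyte genes summed to 1075 to 5661 CPM in SCA1-High-FAPs, against 110.1 to 610.2 CPM in the control, with *Lep* at 0. *Adipoq* and *Car3* passed, and these calls held in 2 and 3 of the 8 fits that left out 1 library (adjusted p up to 0.111 and 0.0972 from edgeR, both without replicate 1 of SCA1-Low-FAPs). Both genes also passed in the 7 alternative fits that kept all libraries (adjusted p = 8.14e-07 and 1.72e-08 from DESeq2). Their log2 fold changes of -4.72 and -5.77 were -5.46 and -6.59 without replicate 3 of SCA1-Low-FAPs. The 6 mural cell genes summed to 13.6 to 37.7 CPM in SCA1-High-FAPs, against 23.5 to 63.2 CPM in the control. *Myh11* and *Cspg4* passed towards SCA1-Low-FAPs, and held in 5 and 2 of the 8 fits. Adjusted p-values from edgeR reached 0.100 without replicate 2 and 0.126 without replicate 4 of SCA1-Low-FAPs. Both genes also passed in the 6 alternative fits that kept all libraries and tested them. The other 4 did not reach the edgeR filter, and of these *Abcc9* (5.72 and 0.861 CPM), *Mcam* (5.58 and 2.47 CPM) and *Rgs5* (3.28 and 1.91 CPM) had the higher mean in SCA1-High-FAPs, so the mural genes did not move one way. The tendon and cartilage genes summed to 312 to 447 CPM in SCA1-High-FAPs, against 295 to 390 CPM in the control, and *Col2a1* was the single one called. *Sox9* made up most of these sums (367 and 297 CPM as means) and was not called (-0.31, adjusted p = 0.267 from edgeR). The scarcer genes of this list did not move one way. *Scx* had 0 counts in all SCA1-High-FAPs libraries and 17, 3, 7 and 3 in the control (adjusted p = 0.0108 from DESeq2), and *Tnmd* had 24.02 and 8.20 CPM without overlap (-1.55, adjusted p = 0.0530 from edgeR and 0.0267 from DESeq2). The part of these genes in the *Adamts2* and *Timp3* differences was not tested, and in RNA of whole cultures fewer cells of a type and less RNA per cell cannot be told apart. Summed leucocyte, endothelial and myogenic markers were at most 10.9, 7.39 and 12.5 CPM in any library, with *Adgre1*, *Emcn* and *Pax7* at 0 in all 8. The FAP genes *Pdgfra*, *Dcn* and *Col1a1* were present in every library. Of 7 FAP genes, 3 passed, *Ly6a* and *Thy1* towards SCA1-Low-FAPs and *Dcn* towards SCA1-High-FAPs. *Thy1* was at 270 and 429 CPM as means of SCA1-High-FAPs and the control (0.67, adjusted p = 0.0105 from edgeR), and its call was lost without replicate 1 of SCA1-Low-FAPs (0.62, adjusted p = 0.0507). The call of *Dcn* (-2.08, adjusted p = 0.0167 from edgeR) was lost without replicates 2 (-2.08, adjusted p = 0.0504) or 4 (-1.92, adjusted p = 0.0537) of SCA1-Low-FAPs. It held in the 7 alternative fits that kept all libraries (adjusted p = 7.66e-05 from DESeq2).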

How the data were processed

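QuantSeq 3′ mRNA libraries were trimmed with bbduk, aligned to mm10 with STAR and counted on genes of Ensembl release 93 with htseq-count by the authors. The deposited values are raw counts per gene, without normalisation. The strand setting is not given in the sources used here. Reads on no gene feature (13.3% to 16.4% of uniquely aligned reads) were left out. Of 31053 genes, 31011 were matched by identifier to GENCODE M21 (GRCm38) for names and positions.

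Cell states were compared with edgeR 4.0.16 (quasi-likelihood test, robust estimation, R 4.3.3), with TMM factors, filterByExpr (minimum of 10 counts, 15 in total) and Benjamini-Hochberg adjustment over all 10181 tested genes. All p-values are from edgeR unless DESeq2 1.42.0 is named. Standard errors were obtained by dividing each fold change on the log2 scale by the root of its F statistic. CPM use TMM effective library sizes of the tested genes, and log2 CPM a prior count of 2. The fits were also run on simulated counts, with the same spread for all genes and changes placed in well counted genes only. Those runs do not cover changes as small as that of *Adamts2*, scarce genes or paired samples.

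The 10 members and all lists were chosen with earlier results of these data known, so the share of a list that passed is no result about that list. Text names all members, the genes of the family, partner and substrate lists that passed, *Timp3*, *Lrp1*, *Furin*, *Vcan*, *Acan*, *Comp*, *Fbn1* and *Pcolce*, and the 3 genes most like each called member. *Adamts6*, *Timp2*, *Col1a2*, the genes with 0 counts and the markers are named in addition. Alternatives were DESeq2, RLE factors, no filter, at least 10 counts in every sample, no robust estimation, the replicate number as a block, stricter limits and each library left out.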

Additional observations from a re-analysis of the deposited data

Results flagged for a closer look

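In 7 of 66 groups of 4 libraries (the members and the called genes of the partner and marker lists), 1 library stood apart from the other 3 by Dixon's ratio of gap to range, a limit that chance passes in about 1 group of 20. Replicate 3 of SCA1-Low-FAPs was the high library for *Adamts2* (317 CPM against 275.5 to 277 CPM, ratio 0.966), *Pcsk5* (44.4 against 9.18 to 12.1 CPM, ratio 0.916) and *Comp* (48.2 against 29.5 to 31.4 CPM, ratio 0.897). In each of these 3 genes it stood nearer to SCA1-High-FAPs than the other SCA1-Low-FAPs libraries did. This was not particular to them. Over all tested genes its log2 CPM correlated at 0.888 to 0.946 with SCA1-High-FAPs libraries and at 0.917 to 0.946 with the other SCA1-Low-FAPs libraries. *Adamts12* was low in replicate 4 of SCA1-High-FAPs (51.3 against 77.8 to 82.7 CPM, ratio 0.843). *Adamts10* was high in replicate 2 of SCA1-Low-FAPs (33.8 against 14.02 to 16.5 CPM, ratio 0.875). *Adamts14* and *Col2a1* had counts in a single SCA1-High-FAPs library each (ratio 1 in both), at 0.942 CPM in replicate 1 and 2.92 CPM in replicate 3, which are 2 and 7 counts.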

How the results depend on the processing

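*Adamts2* kept its direction and passed under all 15 alternative fits, with log2 fold changes of -0.76 to -0.61 and adjusted p-values of 0.000355 to 0.0380. The labels do not say whether equal replicate numbers mark pairs. Deviations of same-numbered samples correlated at -0.05 to 0.01 across genes, and 0 of 8 samples correlated best with its own number. These correlations over all tested genes cannot decide whether the numbers mark pairs, because single genes can differ from them. The block lowered the standard error of *Car3* from 1.09 to 0.25 and that of *Adipoq* from 0.95 to 0.33. It raised that of *Adamts2* from 0.144 to 0.152. With the replicate number as a block, 1 member was again called, *Adamts2* at -0.67 (adjusted p = 0.0196 from edgeR), and 697 genes in all, against 782. The block ended the call of *Ly6a* (0.65, adjusted p = 0.0573 from edgeR) and added those of *Plin1* (adjusted p = 8.25e-05) and *Tnmd* (adjusted p = 0.0455), and 3 adipocyte genes were called with it in edgeR and 5 with DESeq2, with or without it, against 2.

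The number of members called was 2 with DESeq2, with no filter and with the block in DESeq2 (*Adamts2* and *Adamts15* each time). This stood beside 8.53%, 6.63% and 6.88% of all genes tested. The number was 0 with a log2 fold change limit of 1 (4.64% of all genes). It was 1 to 2 when 1 library was left out (3.96% to 9.85% of all genes). *Adamts9* ranged from -0.14 to 0.10 when 1 library was left out and was never called. Of 9 other ADAMTS genes 1 was called with DESeq2. Of the inhibition and clearance genes 1 passed at a fold change limit of 1. Maturation enzymes gave 0 calls with no filter and at an adjusted p of 0.01, and 0 to 1 when 1 library was left out. Procollagen genes gave 1 call with no filter, 1 with 10 counts in every sample, 0 at an adjusted p of 0.01 and 0 to 2 when 1 library was left out. The other substrates gave 1 call at an adjusted p of 0.01 and 1 to 4 when 1 library was left out. Of all genes tested, 8.53% were called with DESeq2, 6.63% with no filter and 8.77% with 10 counts in every sample. The share was 3.02% at an adjusted p of 0.01 and 4.64% at a fold change limit of 1. It was 3.96% to 9.85% when 1 library was left out. The summed CPM of the 10 genes was 1427 and 1158 on raw totals.

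Over all genes, calls numbered 307 at an adjusted p of 0.01, 472 at a fold change limit of 1, and 410 to 1017 when 1 library was left out. The 1017 calls came without replicate 3 of SCA1-Low-FAPs and the 410 without replicate 4 of SCA1-Low-FAPs. The fits without replicate 3 of SCA1-High-FAPs for *Adamts15* (-1.90 and -2.01, neither called) were added after seeing the data.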

Other observations

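Within libraries, the hyalectanase mRNAs stood lower against *Vcan*, the gene of their substrate versican, in SCA1-Low-FAPs. Counts on the 5 hyalectanase genes per *Vcan* count were 1.24, 0.790, 0.813 and 0.799 in replicates 1 to 4 of SCA1-High-FAPs and 0.649, 0.703, 0.728 and 0.598 in those of SCA1-Low-FAPs. The groups did not overlap, although neither the summed hyalectanases nor *Vcan* alone separated them. *Adamts4* gave 4.11 to 5.32 counts per 100 *Adamts5* counts in SCA1-High-FAPs and 2.05 to 3.85 in SCA1-Low-FAPs. These ratios were chosen after the values were seen and were not tested.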
